A study of Mus musculus with 6 samples.

Results

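The 10 genes described here code for enzymes that make serine, proline and one-carbon units: Phgdh, Psat1, Psph, Shmt1, Shmt2, Mthfd1, Mthfd1l, Mthfd2, Aldh18a1 and Pycr1. They were chosen by symbol, as the enzymes of these routes, from 17060 genes listed in any library. All 10 were listed in each of the 6 libraries, and all 10 passed the filter on low counts that left 12306 genes to test. RNA was sequenced from bone marrow (BM) cells of wild-type mice that had been depleted of cells with mature lineage markers and grown in erythropoietin (EPO), the hormone that drives red cell formation. The cells received either the solvent DMSO or NUP-17d, a small molecule made to inhibit the pleckstrin family protein Plek2, for 48 h, with 3 libraries in each group. The comparison asked which mRNAs differed in level between the treated and the solvent cultures. The labels call the cells erythroblasts but do not say whether the cultures of a group came from separate mice, so p-values measure the spread between these libraries, which may be technical.

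Serine is made from the glycolytic intermediate 3-phosphoglycerate in the cytosol, in successive steps run by Phgdh, Psat1 and Psph. Serine hydroxymethyltransferases then split serine into glycine and a one-carbon unit that is loaded on tetrahydrofolate, and the Mthfd enzymes oxidise or release that unit, in parallel arms in the mitochondrion and the cytosol. Proline is made from glutamate by Aldh18a1 and reductases such as Pycr1. Dividing erythroid precursors use one-carbon units for purines and thymidylate and glycine for heme, and several of these genes are known targets of the transcription factor ATF4.

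Promoter sequences are shown for 4 members because they are those of the members with the largest decreases (Mthfd2 and Shmt2), of the cytosolic counterpart of Shmt2 (Shmt1) and of the only member with a match to an ATF4 element (Pycr1). They come from RefSeq on assembly GRCm38.p6, run 5′ to 3′ on the gene's strand from 250 bases before to 50 bases after a start of the gene, and all 10 members had at least 1 such window. Capitals mark the CCAAT box (CCAAT, or ATTGG where it lies on the opposite strand) in Mthfd2 and Shmt1 and the ATF4-C/EBP element (TGATGNAA) in Pycr1. The Shmt2 window held no match to any of the 4 motifs searched. The windows are chr6:83317555-83317854 for Mthfd2, chr10:127522395-127522694 for Shmt2, chr11:60811216-60811515 for Shmt1 and chr11:120643699-120643998 for Pycr1, all on the minus strand.
Mthfd2: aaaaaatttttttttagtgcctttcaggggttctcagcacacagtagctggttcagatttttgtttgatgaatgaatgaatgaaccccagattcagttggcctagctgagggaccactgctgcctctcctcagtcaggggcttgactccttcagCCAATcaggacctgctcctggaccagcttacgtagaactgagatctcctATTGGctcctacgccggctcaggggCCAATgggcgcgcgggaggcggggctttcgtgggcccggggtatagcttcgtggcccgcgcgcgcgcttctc
Shmt2: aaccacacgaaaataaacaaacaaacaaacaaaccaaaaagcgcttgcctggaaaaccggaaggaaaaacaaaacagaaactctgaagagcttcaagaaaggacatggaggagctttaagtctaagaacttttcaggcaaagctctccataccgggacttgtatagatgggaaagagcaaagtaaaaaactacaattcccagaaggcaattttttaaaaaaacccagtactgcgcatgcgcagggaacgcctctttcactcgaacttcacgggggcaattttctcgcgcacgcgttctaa
Shmt1: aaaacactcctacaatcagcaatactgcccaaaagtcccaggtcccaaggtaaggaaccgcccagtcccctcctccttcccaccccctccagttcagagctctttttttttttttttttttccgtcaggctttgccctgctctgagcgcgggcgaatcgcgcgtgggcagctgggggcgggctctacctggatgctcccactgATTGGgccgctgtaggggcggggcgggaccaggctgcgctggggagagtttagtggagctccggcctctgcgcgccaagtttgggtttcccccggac
Pycr1: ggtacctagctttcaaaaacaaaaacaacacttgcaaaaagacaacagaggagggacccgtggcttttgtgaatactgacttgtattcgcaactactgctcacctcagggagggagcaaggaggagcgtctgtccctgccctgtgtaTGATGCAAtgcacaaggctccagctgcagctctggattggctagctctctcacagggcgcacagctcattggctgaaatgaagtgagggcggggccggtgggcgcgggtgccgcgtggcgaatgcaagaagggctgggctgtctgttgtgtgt

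Both strands of the 11 windows of the members were searched for 4 motifs, and a match describes letters only. The ATF4-C/EBP element TGATGNAA was found in 1 of the 10 members, as TGATGCAA starting 103 bases before the Pycr1 start (position -103), against 3.97% of 32851 windows of all genes and 2.38% of 12632 windows of tested genes. The CCAAT box CCAAT was found in 7 members (Phgdh, Psat1, Psph, Shmt1, Mthfd1, Mthfd2 and Pycr1), against 37.4% of all windows and 37.9% of those of tested genes. Mthfd2 held 3 of them, at positions -96, -47 and -22, and a window of Psat1 also held 3, at -36, -6 and 24. The GC box GGGCGG was found in 7 members (Psat1, Psph, Shmt1, Mthfd1, Mthfd1l, Aldh18a1 and Pycr1), against 35.7% and 61.0%. The E-box CACGTG, the core site of the Myc family, was found in Aldh18a1 alone, at position -59, against 7.15% and 9.96%. None of the 4 motifs contains another.

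The deposited files give for each gene an expected count, an estimate of its reads that need not be whole, and FPKM, the reads relative to transcript length and to all reads of the library. The totals ran from 20076409 to 20419018 expected counts per library. The share of hemoglobin genes was 19.1% ± 1.04 (SD, n = 3) in the DMSO libraries and 12.2% ± 0.723 in the NUP-17d libraries, which leaves a larger share for all other genes in the latter. Counts were therefore scaled with TMM, a factor per library that rests on the assumption that most genes do not differ. Levels are given as TMM-scaled CPM, a gene's count relative to a library of fixed scaled size. Changes are log2 fold changes, NUP-17d minus DMSO, from edgeR's quasi-likelihood test with p-values adjusted over all 12306 genes by Benjamini-Hochberg, and a gene was called at an adjusted p under 0.05. Scaling by library totals alone moved the median log2 fold change of all tested genes from 0.01 to 0.28. With hemoglobin genes removed first, scaling by totals still gave a median of 0.16, so the hemoglobin share was only part of this shift. Values with TMM and with library totals alone are therefore given for the 10 members. Plek2 itself, with TMM, was at 52.6 ± 2.85 CPM with DMSO and 39.9 ± 1.32 with NUP-17d (log2 fold change -0.40, adjusted p = 1.78e-07), which does not test the inhibitor, since it acts on the protein.

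With TMM the serine and one-carbon genes were mostly lower after NUP-17d, and of the members called lower Psat1 fell by 7.75%, the least, and Mthfd2 fell by 24.4%, the most. Of the 10 members, 7 were called lower (Phgdh, Psat1, Shmt2, Mthfd1, Mthfd1l, Mthfd2 and Pycr1), 0 were called higher and 3 were not called (Psph, Shmt1 and Aldh18a1). Over all tested genes 35.3% were called, 18.9% lower and 16.4% higher. The groups did not overlap for 8 members, against 46.0% of all tested genes. The median log2 fold change was -0.18 over the members and 0.01 over all tested genes. With library totals alone, where 74.1% of all genes were called and 92.8% of those calls were higher against 46.5% with TMM, 1 member was called lower (Mthfd2), 3 were called higher (Psat1, Shmt1 and Aldh18a1) and the members' median was 0.09. Under both scalings 8 of the 10 members lay below the median of all tested genes, with Shmt1 and Aldh18a1 above it.

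**Figure D1:**
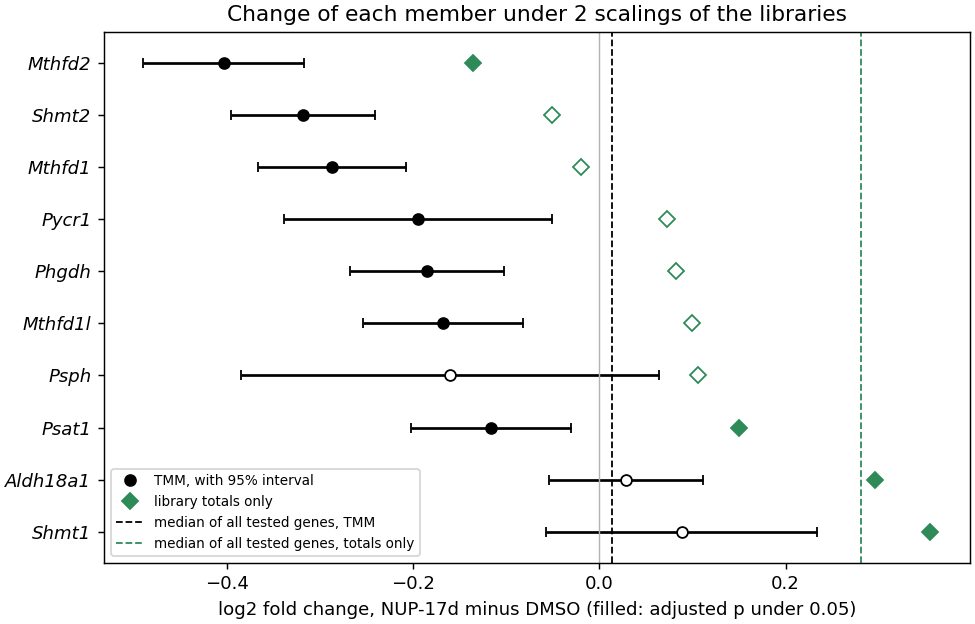
Log2 fold change (x axis, NUP-17d minus DMSO, n = 3 libraries each) of each member (y axis), with TMM scaling (circles, bars the 95% interval) and with library totals alone (diamonds). Filled symbols have an adjusted p under 0.05 and dashed lines are the medians of all tested genes, 0.01 and 0.28. Mthfd2 was lower and called under both scalings, whereas Phgdh, Psat1, Psph, Mthfd1l and Pycr1 changed sign between them.

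Levels between genes were compared by FPKM, which corrects for transcript length but not for the smaller hemoglobin share. Shmt2, the mitochondrial serine hydroxymethyltransferase, had the highest level of the 10, at 104.7 FPKM with DMSO and 101.3 with NUP-17d, above 96.8% of the genes listed with DMSO. It was followed by Mthfd2 (64.6 and 59.0), Phgdh (37.5 and 39.8), Psat1 (27.7 and 30.9), Mthfd1 (23.3 and 23.0) and Aldh18a1 (18.3 and 22.6). Mthfd1l (15.2 and 16.4), Pycr1 (8.57 and 8.92), Shmt1 (6.01 and 7.71) and Psph (5.45 and 5.88) were lower, and Psph still lay above 58.6% of the genes listed with DMSO. The order of the means was the same in both groups. Neighbours in the order did not overlap between libraries, except Shmt1 and Psph with DMSO and Mthfd1 and Aldh18a1 with NUP-17d. Mthfd1 stood above Aldh18a1 in 5 of 6 libraries, and every other neighbouring pair kept its order in 6 of 6.

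**Figure D2:**
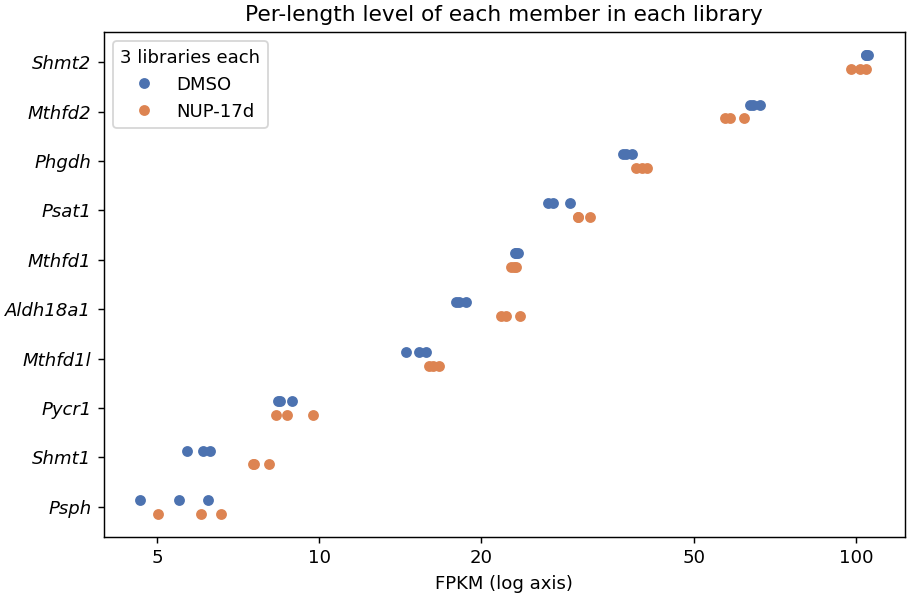
FPKM of each member (x axis, log scale; members on the y axis in the order of the DMSO means) in each of the 3 DMSO and 3 NUP-17d libraries (points). Shmt2 and Mthfd2 stood highest in both groups and Psph lowest by mean, and, since FPKM follows library totals, members such as Aldh18a1 and Shmt1 sit to the right with NUP-17d here while neither was called with TMM.

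Phgdh (Entrez 236539, chr3:98313171-98339969), the dehydrogenase that commits 3-phosphoglycerate to serine, was at 79.3, 74.6 and 78.4 CPM in the DMSO libraries and at 67.9, 69.0 and 67.4 CPM with NUP-17d. All 3 NUP-17d libraries were below all 3 DMSO libraries. The means were 77.4 ± 2.49 and 68.1 ± 0.815 CPM, a log2 fold change of -0.18 (SE 0.040, 95% interval -0.27 to -0.10, adjusted p = 6.27e-04 by edgeR). With library totals alone the change was 0.08 (adjusted p = 0.0909), so that its direction depends on the scaling.

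Psat1 (Entrez 107272, chr19:15905123-15925059), the aminotransferase of the next step, was at 66.0, 68.9 and 65.2 CPM with DMSO and 63.4, 59.8 and 61.4 CPM with NUP-17d. The groups did not overlap but lay close, at means of 66.7 ± 1.94 and 61.5 ± 1.82 CPM. The log2 fold change was -0.12 (SE 0.042, 95% interval -0.20 to -0.03, adjusted p = 0.0313), and it turned to 0.15 (adjusted p = 0.00698) with library totals alone. The call also rested on single libraries. It was lost without DMSO replicate 1 (adjusted p = 0.0501), DMSO replicate 2 (0.154), NUP-17d replicate 2 (0.133) or NUP-17d replicate 3 (0.0622), and DESeq2 did not make it (0.110).

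Psph (Entrez 100678, chr5:129765558-129787443), the phosphatase that releases free serine, had the fewest reads of the 10, with 148 to 206 counts per library. It was at 8.18, 10.4 and 9.29 CPM with DMSO and 8.50, 7.04 and 9.44 CPM with NUP-17d, and the groups overlapped. Its log2 fold change of -0.16 was close to that of Phgdh but had an SE of 0.109 (95% interval -0.39 to 0.06, adjusted p = 0.271), so that no difference was detectable at this depth. The change was 0.11 with library totals alone (adjusted p = 0.396), of the opposite sign and not called either.

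Shmt2 (Entrez 108037, chr10:127517123-127522444), whose promoter is printed above, had the most reads, with 4571 to 5000 counts per library. Its level was 276.3, 261.0 and 264.1 CPM with DMSO and 213.9, 204.9 and 224.1 CPM with NUP-17d. The groups were well apart, at 267 ± 8.12 and 214 ± 9.58 CPM, a log2 fold change of -0.32 (SE 0.038, 95% interval -0.40 to -0.24, adjusted p = 1.44e-07). Library totals alone left -0.05 (adjusted p = 0.197).

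Shmt1 (Entrez 20425, chr11:60788897-60811265), the cytosolic counterpart, was not called. It was at 13.4, 14.1 and 13.8 CPM with DMSO and 15.2, 14.2 and 14.5 CPM with NUP-17d, with the NUP-17d libraries just above the DMSO libraries. The log2 fold change of 0.09 was within the error (SE 0.071, 95% interval -0.06 to 0.23, adjusted p = 0.354), and it was 0.36 (adjusted p = 1.93e-04) with library totals alone. Its expected counts were not whole in 4 of 6 libraries, as happens when reads that match more than 1 gene are shared out. How many reads were shared is not known, so its level may be less certain than that of Shmt2.

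Mthfd2 (Entrez 17768, chr6:83305704-83326011), the mitochondrial dehydrogenase and cyclohydrolase for folate-bound one-carbon units, had the largest difference of the 10. It was at 155.8, 143.8 and 144.3 CPM with DMSO and 109.9, 107.1 and 118.8 CPM with NUP-17d. The lowest DMSO library was well above the highest NUP-17d library. The means of 148 ± 6.81 and 112 ± 6.10 CPM gave a log2 fold change of -0.40 (SE 0.042, 95% interval -0.49 to -0.32, adjusted p = 1.55e-08), and 6.08% of all tested genes had a lower one. Mthfd2 was the only member called lower in all 18 alternative analyses, at -0.14 (adjusted p = 0.00467) with library totals alone.

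Mthfd1 (Entrez 108156, chr12:76254406-76319820), the cytosolic enzyme with 3 folate activities, was at 88.1, 84.2 and 86.1 CPM with DMSO and 71.0, 70.0 and 70.8 CPM with NUP-17d. The NUP-17d libraries lay within a narrow range below every DMSO library, at 70.6 ± 0.543 against 86.2 ± 1.95 CPM. The log2 fold change was -0.29 (SE 0.039, 95% interval -0.37 to -0.21, adjusted p = 1.23e-06), and -0.02 (adjusted p = 0.682) with library totals alone.

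Mthfd1l (Entrez 270685, chr10:3972892-4167081), which releases formate from the mitochondrion, was at 62.0, 62.5 and 65.2 CPM with DMSO and 55.0, 56.9 and 56.9 CPM with NUP-17d. The groups did not overlap. The means of 63.2 ± 1.71 and 56.3 ± 1.11 CPM gave a log2 fold change of -0.17 (SE 0.042, 95% interval -0.25 to -0.08, adjusted p = 0.00231), against 0.10 (adjusted p = 0.0628) with library totals alone.

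Aldh18a1 (Entrez 56454, chr19:40550257-40588463) makes pyrroline-5-carboxylate, the precursor of proline, from glutamate. Its level was 73.1, 72.6 and 71.2 CPM with DMSO and 76.7, 72.2 and 72.3 CPM with NUP-17d, and the groups overlapped. The log2 fold change was 0.03 (SE 0.040, 95% interval -0.05 to 0.11, adjusted p = 0.619), an interval that leaves out decreases of the size measured for each of the 7 members called lower. With library totals alone it was called higher, at 0.30 (adjusted p = 3.37e-06).

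Pycr1 (Entrez 209027, chr11:120638998-120643748), a mitochondrial reductase that completes proline, was at 20.4, 18.2 and 18.1 CPM with DMSO and 16.0, 17.7 and 15.8 CPM with NUP-17d. The groups did not overlap, although NUP-17d replicate 2 came close to the lower DMSO libraries. The log2 fold change was -0.19 (SE 0.070, 95% interval -0.34 to -0.05, adjusted p = 0.0317), and 0.07 (adjusted p = 0.361) with library totals alone. The call was lost without DMSO replicate 1 (adjusted p = 0.198), NUP-17d replicate 1 (0.0882) or NUP-17d replicate 3 (0.104), and DESeq2 did not make it (0.151). Like those of Shmt1, the counts of Pycr1 were not whole, in 6 of 6 libraries, while the other 8 members had whole counts throughout.

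**Figure D3:**
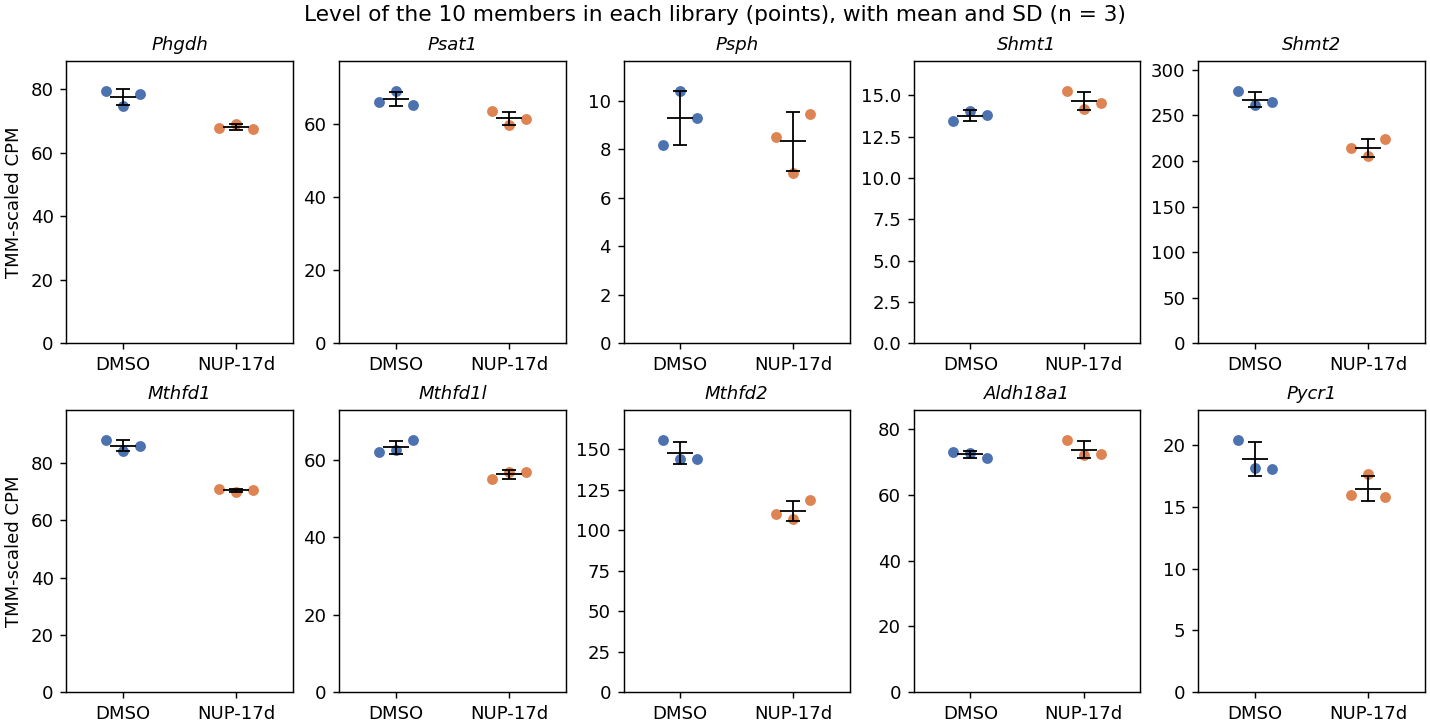
TMM-scaled CPM (y axis, from 0) of the 10 members in each of the 3 DMSO and 3 NUP-17d libraries (points), with the mean and SD (bars, n = 3). The groups are apart for 8 members, widest for Mthfd2 and Shmt2, and overlap for Psph and Aldh18a1, and for Phgdh, Psat1, Mthfd1l and Pycr1 the lower position with NUP-17d holds under TMM but turns with library totals alone.

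Summed over the 10 genes, the members took 0.0750% ± 0.00031 (SD, n = 3) of all counts with DMSO and 0.0763% ± 0.00104 with NUP-17d. As a share of the counts outside hemoglobin they took 0.0927% ± 0.00087 and 0.0869% ± 0.00166, and here the groups did not overlap (0.0922% to 0.0937% against 0.0852% to 0.0885%). Against 18.9% of all tested genes called lower, all 3 Mthfd enzymes (Mthfd1, Mthfd1l and Mthfd2) were called lower with TMM, as were 2 of the 3 serine synthesis enzymes, 1 of the 2 hydroxymethyltransferases and 1 of the 2 proline enzymes. No difference between the routes was tested, and the uncalled Psph had about the same log2 fold change as the called Mthfd1l. By library totals alone the Mthfd enzymes had 1 called lower and 0 called higher, and each of the other routes had 1 called higher and 0 called lower. Of all 12306 tested genes that scaling called 8458 higher and 657 lower.

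Ratios of a pair of genes in the same library do not depend on how libraries are scaled. Of 8 pairs compared, 7 are given. With 3 libraries against 3 the exact permutation test over libraries (2-sided) cannot go below p = 0.1, so no pair could pass 0.05. Shmt2 to Shmt1 was 18.5, 16.7 and 17.2 with DMSO and 12.6, 13.0 and 13.8 with NUP-17d, by FPKM. The groups were apart, at 17.5 ± 0.973 and 13.2 ± 0.628, a log2 difference of -0.41 (SE 0.061, exact p = 0.1, 0.2 adjusted over the 8 pairs). The mitochondrial form thus stood lower relative to the cytosolic form in 3 of 3 NUP-17d libraries than in any DMSO library.

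Pycr1 to Aldh18a1 stood at 0.493, 0.445 and 0.464 with DMSO and 0.368, 0.436 and 0.382 with NUP-17d (log2 difference -0.25, SE 0.086, exact p = 0.1). Those ranges did not overlap, but the gap between 0.436 and 0.445 was smaller than the spread within either group. Mthfd1l to Mthfd1 was 0.654 ± 0.0247 with DMSO and 0.711 ± 0.0192 with NUP-17d, without overlap (log2 difference 0.12, exact p = 0.1). Mthfd2 to Mthfd2l, its paralog of the same mitochondrial step, was 71.6 ± 16.5 and 48.4 ± 3.32, without overlap (log2 difference -0.54, SE 0.203, exact p = 0.1), with Mthfd2l at only 0.75 to 1.27 FPKM. The ratios of Mthfd2 to Mthfd1 (2.78 and 2.56, log2 difference -0.12, exact p = 0.2), Psat1 to Phgdh (0.741 and 0.776, exact p = 0.3) and Psph to Phgdh (0.145 and 0.148, exact p = 0.9) overlapped between the groups.

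**Figure D4:**
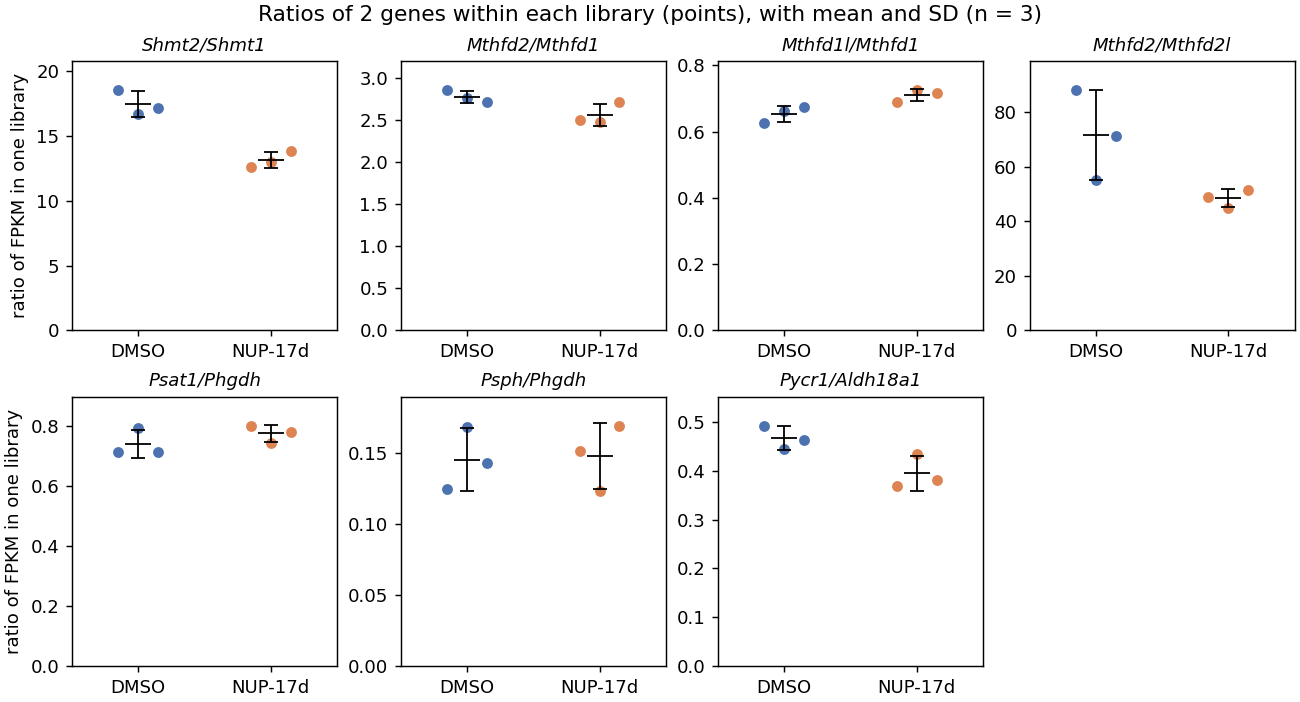
Ratio of the FPKM of 2 genes in the same library (y axis, from 0) for 7 pairs, in the 3 DMSO and 3 NUP-17d libraries (points), with the mean and SD (bars, n = 3). Shmt2/Shmt1, Mthfd2/Mthfd2l and Pycr1/Aldh18a1 are lower and Mthfd1l/Mthfd1 is higher with NUP-17d without overlap, each at exact p = 0.1, the smallest this design allows, and the other 3 pairs overlap.

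The other genes of these pathways were taken from lists and counted in the same fit. Among other folate enzymes and carriers, 15 of 19 were tested, with 2 called higher, 3 called lower and a median log2 fold change of -0.02 (10 higher, 1 lower and 0.25 with library totals alone). Sfxn3, a mitochondrial carrier related to the serine carrier Sfxn1, was higher (0.39, adjusted p = 2.62e-07), as was Aldh1l1, the cytosolic formyltetrahydrofolate dehydrogenase, at a low level of 2.55 and 3.67 CPM (0.52, adjusted p = 0.0128, and 0.0910 by DESeq2). Sfxn1 itself was among the 3 called lower (-0.12, adjusted p = 0.0247), but was called higher with library totals alone (0.15, adjusted p = 0.00652). Aldh1l2, the mitochondrial form, reached at most 5 counts in any library and was not tested.

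Of the 10 genes of nucleotide synthesis that lie on routes using one-carbon units, 5 were called lower and 0 higher, with a median of -0.11. The changes were small, at -0.20 for Gmps, -0.19 for Gart, -0.19 for Ppat and -0.13 for Impdh2 (adjusted p = 3.78e-04, 5.34e-04, 0.00105 and 0.00896). With library totals alone 7 of these 10 were called higher, 0 lower, and the median was 0.15. In the methionine cycle 7 of 11 genes were tested and 1 was called, the methionine synthase Mtr, at -0.15 (adjusted p = 0.0205, and 0.106 by DESeq2), while with library totals alone 6 were called higher. In glycine cleavage and breakdown 4 of 6 were tested and 1 was called, Dld, a subunit shared with other dehydrogenases, at -0.10 (adjusted p = 0.0478, and 0.148 by DESeq2), against 3 called higher with library totals alone. Gldc, the decarboxylase that starts glycine cleavage, had at most 1 count in any library, and Cbs and Cth, the enzymes that turn homocysteine and serine into cysteine, had at most 3 and 13.

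For the other proline, ornithine and glutamate enzymes 9 of the 11 symbols listed were found and tested. Of these, 2 were called higher and 2 lower, with a median of -0.01 (6 higher, 0 lower and 0.26 with library totals alone). Glul, glutamine synthetase, fell with TMM from 495 ± 12.5 to 396 ± 4.44 CPM (-0.32, adjusted p = 1.88e-08), but was not called with library totals alone (-0.05, adjusted p = 0.134). Prodh and Aldh4a1, which together break proline down to glutamate, were called higher, at 0.27 (adjusted p = 0.0104) and 0.22 (adjusted p = 0.0280) with TMM and 0.53 and 0.49 with library totals alone. DESeq2 called neither (adjusted p = 0.0874 and 0.155).

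Among carriers that bring in serine, glycine and other neutral amino acids, Slc1a5, Slc6a9 and Slc7a5 had lower log2 fold changes than any of the 10 enzymes. Of the 10 genes tested of 11 listed for serine use and neutral amino acid carriers, 4 were called lower and 2 higher, with a median of -0.06. The 2 higher included the neutral amino acid carrier Slc38a2 (0.12, adjusted p = 0.00938, and 0.39 with library totals alone). Slc1a5, a carrier of glutamine, serine and alanine, was at 435.3, 406.4 and 417.7 CPM with DMSO and 267.5, 265.4 and 277.8 CPM with NUP-17d (-0.64, adjusted p = 9.39e-14). Slc6a9, the glycine carrier GlyT1 of erythroid cells, was at 423.4, 395.4 and 395.3 CPM with DMSO and 274.2, 273.7 and 288.5 CPM with NUP-17d (-0.54, adjusted p = 4.54e-12). The groups were far apart for both. Slc7a5 (-0.52, adjusted p = 2.16e-12) and Slc3a2 (-0.36, adjusted p = 4.31e-09), the light and heavy chains of a carrier of large neutral amino acids, were lower as well. These 4 were called lower also with library totals alone, at -0.37, -0.27, -0.25 and -0.10 in the order named, where 6 of the list were called higher.

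In a list of ATF4, its partners, its targets other than the members, and eIF2 kinases, 14 of 15 genes were tested. Of these, 11 were called lower and 0 higher, with a median of -0.28 (6 lower, 5 higher and -0.01 with library totals alone). Atf4 mRNA was at 521.5, 513.7 and 501.6 CPM with DMSO and 422.4, 425.9 and 435.8 CPM with NUP-17d. All NUP-17d libraries were lower (-0.26, adjusted p = 7.08e-07), but with library totals alone there was no difference to call (0.01, adjusted p = 0.818). ATF4 is controlled largely at translation, which mRNA levels do not show. Ppp1r15a, a phosphatase subunit that reverses eIF2 phosphorylation, had a log2 fold change of -0.70 (adjusted p = 4.32e-14), Eif2ak1, the heme-regulated eIF2 kinase of erythroid cells, -0.61 (adjusted p = 2.91e-13), Atf5 -0.42 (adjusted p = 3.56e-09) and Cebpg, a dimer partner of ATF4, -0.40 (adjusted p = 8.70e-10). These 4 were lower and called under both scalings.

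Myc, whose product is known to activate many biosynthetic enzymes, was at 109.5, 117.8 and 110.3 CPM with DMSO and 116.6, 114.1 and 118.8 CPM with NUP-17d. The groups overlapped (0.05, SE 0.038, adjusted p = 0.344), though with library totals alone it was called higher (0.32, adjusted p = 7.67e-07). Of the 10 genes of the Myc network 2 were called higher and 3 lower, with a median of -0.03 (7 higher, 2 lower and 0.24 with library totals alone). The antagonists Mxd1 (-0.36, adjusted p = 2.15e-09) and Mxi1 (-0.37, adjusted p = 4.85e-09) were lower under both scalings. Mxd4, an antagonist of the same family, was higher under both (0.28, adjusted p = 0.0190, and 0.122 by DESeq2). Mycn, at 13.0 and 17.7 CPM, was also higher under both (0.45, adjusted p = 1.07e-05). Max, the dimer partner of the family, was lower with TMM (-0.16, adjusted p = 0.00121) and higher with library totals alone (0.10, adjusted p = 0.0352).

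**Figure D5:**
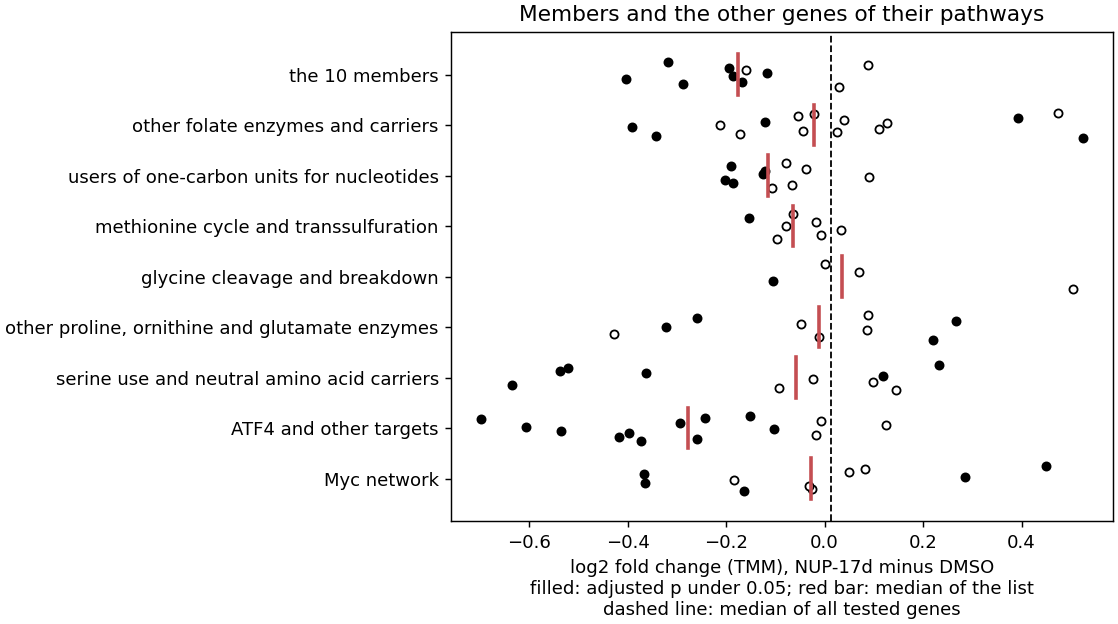
Log2 fold change with TMM (x axis, NUP-17d minus DMSO) of each tested gene (points, filled at an adjusted p under 0.05) of the 10 members and of 8 related lists (y axis), with the list's median (red bar) and the median of all tested genes (dashed, 0.01). The members' median was -0.18 and that of the ATF4 list, which also holds eIF2 kinases, -0.28. With library totals alone these medians became 0.09 and -0.01 against 0.28 for all genes.

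The libraries also differed in erythroid mRNA, and its part in the values above was not tested. All 18 erythroid markers were tested and all 18 were called lower with TMM (16 with library totals alone), with a median of -0.70, and none was at 0. Their summed level ran from 222860 to 257130 CPM with DMSO and from 123480 to 138000 with NUP-17d. Hemoglobin genes made up most of this sum, with Hba-a1 at 76359 and Hbb-bs at 77814 CPM by mean with DMSO. The markers Klf1 (-0.24) and Gata1 (-0.33) fell less with TMM and were not called with library totals alone (adjusted p = 0.496 and 0.0842). In bulk RNA, fewer cells of a type and less of an mRNA per cell cannot be told apart. For markers of other cells the calls depended on the scaling. Stem and progenitor markers (9 tested, 2 higher, 1 lower) summed to 524 to 529 CPM and 533 to 551 CPM, neutrophil markers (10, 3 higher, 1 lower) to 4123 to 4285 and 4231 to 4513 CPM, and megakaryocyte markers (9, 6 higher, 1 lower) to 476 to 526 and 550 to 570 CPM. Monocyte and macrophage markers (11, 3 higher, 4 lower) summed to 686 to 753 and 734 to 812 CPM, mast cell and basophil markers (7, 1 higher, 3 lower) to 237 to 254 and 210 to 217 CPM and lymphocyte markers (7, 0 higher, 2 lower) to 24.3 to 27.4 and 22.9 to 23.2 CPM. These calls are with TMM. Under library totals alone 8 stem and progenitor markers were called higher and 0 lower, and the counts were 9 and 0 for neutrophil, 8 and 1 for megakaryocyte, 6 and 0 for monocyte and macrophage, 2 and 0 for mast cell and basophil and 1 and 1 for lymphocyte markers. Mecom and Tpsb2 had at most 5 and 4 counts in any library. The part of these marker differences in the lower level of the 7 members was not tested.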

How the data were processed

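Lineage-negative BM cells of wild-type mice were cultured with EPO and DMSO or NUP-17d, and 1 file per library was deposited, 3 per group, grouped by the treatment labels. The authors deposited expected counts, FPKM and transcript lengths per gene. Per the labels, mRNA was selected with oligo dT, copied from random primers and sequenced on a DNBseq instrument, whereas the study's methods name another kit and instrument. The submitters' processing notes name mm10, and the aligner and counter are not given in the sources used here, nor is whether strand was used, so reads of overlapping genes cannot be assigned with certainty. Deposited FPKM follow library totals, with no correction for composition.

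Expected counts, 27.8% to 28.5% of which were not whole in a library, were rounded and tested in edgeR 4.0.16 (R 4.3.3) with TMM, its default filter on low counts, the quasi-likelihood test and Benjamini-Hochberg adjustment over all tested genes at 0.05. DESeq2 1.42.0, limma 3.58.1 on log2(FPKM + 1) with genes of mean FPKM of at least 1, other scalings, no filter, a replicate block and leaving out each library were alternatives. Fits were tested on simulated data. Ratios used the exact permutation test over libraries. Libraries of a group differed by more than counting noise (chi-square per degree of freedom 1.80 to 4.41). All 10 members were named, and of each further list at most the 4 called genes with the lowest p, plus Atf4, Myc and Plek2. Mxd4, Slc38a2, Sfxn1, the erythroid markers given singly and genes too low to test were named after their values were seen. Members and lists were chosen with earlier results of these data known. Gene positions are those of RefSeq on GRCm38.p6. Some genes of the further lists and 1 ratio are not reported here, although they enter the counts.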

Additional observations from a re-analysis of the deposited data

How the results depend on the processing

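The direction of most members rests on how libraries are scaled. With library totals alone, 3 members were called higher and 1 lower (all genes 8458 and 657). limma on FPKM as deposited, which keep library totals, gave 4 members higher and 1 lower each time. It called 7895 and 599 genes at a pseudocount of 1, 7880 and 600 at 0.1, and 7997 and 655 without a filter. Under these 4 settings, in that order, the log2 fold change reversed for Phgdh (0.083, 0.085, 0.087 and 0.085), Psat1 (0.150, 0.151, 0.155 and 0.151), Mthfd1l (0.099, 0.099, 0.104 and 0.099) and Pycr1 (0.073, 0.049, 0.054 and 0.049), and Psph, not called under any setting, also changed sign (0.106, 0.094, 0.110 and 0.094). Removing hemoglobin genes and then scaling by totals, an alternative chosen after seeing the data, called 2 members higher and 3 lower (all genes 5707 and 1054), with Psat1 reversed at 0.033 and Mthfd2, Shmt2 and Mthfd1 called lower at -0.25, -0.17 and -0.14. In the 7 alternatives that correct for composition, Phgdh, Shmt2, Mthfd1, Mthfd1l and Mthfd2 were called lower in 7, Pycr1 in 5 and Psat1 in 4. Several of the 7 also scale by TMM, as the main fit does, so their calls are not independent of it. The 7 include DESeq2, which called 5 members lower and 1161 genes higher against 2019 in edgeR, and 1809 lower. They also include limma on FPKM divided by the TMM factors, which called 7 members lower and 0 higher (all genes 2130 and 1824). With upper-quartile scaling 54.9% of the calls over all genes were higher, and Psat1 and Pycr1 were not called (adjusted p = 0.0841 and 0.0583), nor was Psat1 without a filter (0.0526).

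Leaving out 1 library at a time called 5 to 7 members lower, 0 higher, with 1642 to 1827 genes higher and 2035 to 2181 lower. The same-numbered libraries of the groups correlated by 0.14, 0.07 and 0.02 in their deviations from the group means, and not every library correlated best with its own number. Whether same-numbered cultures share a mouse or a day is not stated in the labels, and these few values cannot settle it. With the replicate number as a block, 7 members were called lower and 0 higher (all genes 2422 and 2121). Depth limits Psph, whose interval includes both no change and decreases larger than that of Shmt2.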
